A study of Mus musculus with 7 samples.

Results

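Polycomb group proteins were examined through the RNA levels of 35 genes that encode subunits of 3 chromatin complexes: Polycomb repressive complexes PRC1 and PRC2, and the deubiquitinase PR-DUB. The genes were listed by symbol and found by Entrez identifier, and the list was made with earlier results of these data known. All 35 were present among the 27179 genes counted in each library, and all 35 were among the 12303 genes kept by a filter on low counts. RNA-seq libraries came from 7 lymphoma cell lines that carried the Eµ-Myc transgene, in which an immunoglobulin enhancer drives Myc in B lineage cells. Per the labels, the lines grew from end stage lymphomas of male C57BL/6 mice, with 3 lines wild-type for Smchd1 and 4 lines Smchd1 null. The labels describe the null genotype as homozygous for a gene trap, whereas the methods of the study write the MD1 allele, and the reason for the difference is not given. The age of the mice is not given, and nothing states that each line came from a different mouse, so that the p-values measure the spread between these lines only.

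PRC2 places methyl groups on lysine 27 of histone H3 through the enzymes Ezh2 or Ezh1, which need Eed and Suz12 to be active. PRC1 places ubiquitin on histone H2A through Ring1 or Rnf2, each paired with 1 of 6 Pcgf proteins, and PR-DUB removes that ubiquitin. Canonical PRC1 holds a Cbx protein that binds the H3 mark and a Phc protein that forms polymers, whereas variant PRC1 holds Rybp or Yaf2 in the place of Cbx. In B lineage cells Ezh2 and Bmi1 are known for supporting proliferation, and Bmi1 is known as a partner of Myc in lymphoma through repression of Cdkn2a. Smchd1 is a chromatin protein that acts on the inactive X chromosome and on clustered and imprinted genes.

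The experiment asked which transcripts depend on Smchd1 in these lines. Levels are given as CPM, the deposited count of a gene scaled to the total count of its library, and levels of different genes were compared only per kilobase of gene length (RPKM). Totals ranged from 3626853 counts in wild-type replicate 1, the only batch 1 and single-end library, to 7519549 in Smchd1 null replicate 4. A count of 0 allowed up to 3 counts, or between 0.399 and 0.827 CPM. The mutated gene followed its labels. Smchd1 stood at 232 ± 14.8 CPM (SD, n = 3) in wild-type lines and 26.5 ± 2.85 CPM (SD, n = 4) in null lines, 11.4% of the wild-type mean, with an exact two-sided permutation p of 0.0286, the smallest that 35 splits allow. Its log2 fold change, null minus wild-type, was -3.16 (SE 0.11, FDR 2.184e-05 in limma).

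Several libraries stood apart. Wild-type replicates 2 and 3 were alike, at a leading log2 distance of 1.26 against 3.11 to 4.92 for the other pairs of the same group, although their counts differed beyond sampling noise (chi-square per degree of freedom 3.96). Their sample weights in the fit were 3.78 and 3.06, against 0.246 to 1.6 for the other 5 libraries. Smchd1 null replicate 4, with a weight of 0.249, held 4 B lineage markers (Cd79a, Cd79b, Pax5 and Ebf1) at a summed 446 CPM. The other lines held them at 611 to 1021 CPM, and none of the 4 was at 0. Cd79a, Pax5 and Ebf1 were each lowest in null replicate 4. Cd79b, at 303 CPM there, lay above the wild-type lines, at 262 to 298 CPM. The same line held 7 precursor B cell markers at a summed 1.46 CPM, against 42.7 to 237 CPM. Single genes made up most of some sums, such as Dntt at 96.0 CPM in null replicate 1 and Il7r at 79.4 CPM in null replicate 3. Of the 7 markers, 3 were at 0 in null replicate 4, but 4 were at 0 in null replicates 1 and 3. Rag1 was at 0 in null replicates 1 and 2, against 0.532 CPM in null replicate 4. Pecam1 was at 219 CPM in null replicate 4, against 44.1 to 94.2 CPM, but the other 4 of 5 endothelial and stromal markers were at 0 to 1.33 CPM there. The Y-linked gene Uty was at 20.7 to 26.1 CPM in 4 lines. Wild-type replicate 1, null replicate 3 and null replicate 4 held it at 0.276, 0.154 and 1.20 CPM, although all lines are labelled male. Why Uty was low in these 3 lines was not tested, and 1 gene cannot show that a label is wrong. T cell markers summed to at most 0.53 CPM in every library, and 9 genes of dividing cells summed to between 3554 and 4298 CPM. The part of these differences in the results was not tested, and in bulk RNA fewer cells of a type and less RNA per cell cannot be told apart.

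In the comparison of null with wild-type lines, 3 of the 35 Polycomb genes were differentially expressed (DE) at an FDR, the Benjamini-Hochberg adjusted p-value over 12303 genes, under 0.05. This was 8.57% of the members, against 11.9% of all genes tested. All 3 fell in the null lines, where 6.85% of all genes fell, and all 3 encode parts of the catalytic core of PRC1. They were Rnf2, the E3 ligase, and Pcgf6 and Pcgf2, which pair with a ligase in variant and in canonical PRC1. The members' share was thus not above that of other genes. Members below 0 on the log2 scale numbered 22 of 35 (62.9%), against 50.7% of all genes, and their median log2 fold change was -0.08 against -0.01. The median size of the difference, regardless of sign, was 0.21 in the members and 0.29 in all genes. At an unadjusted p under 0.05 there were 11 of the 35 members, against 31.8% of all genes.

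**Figure D1:**
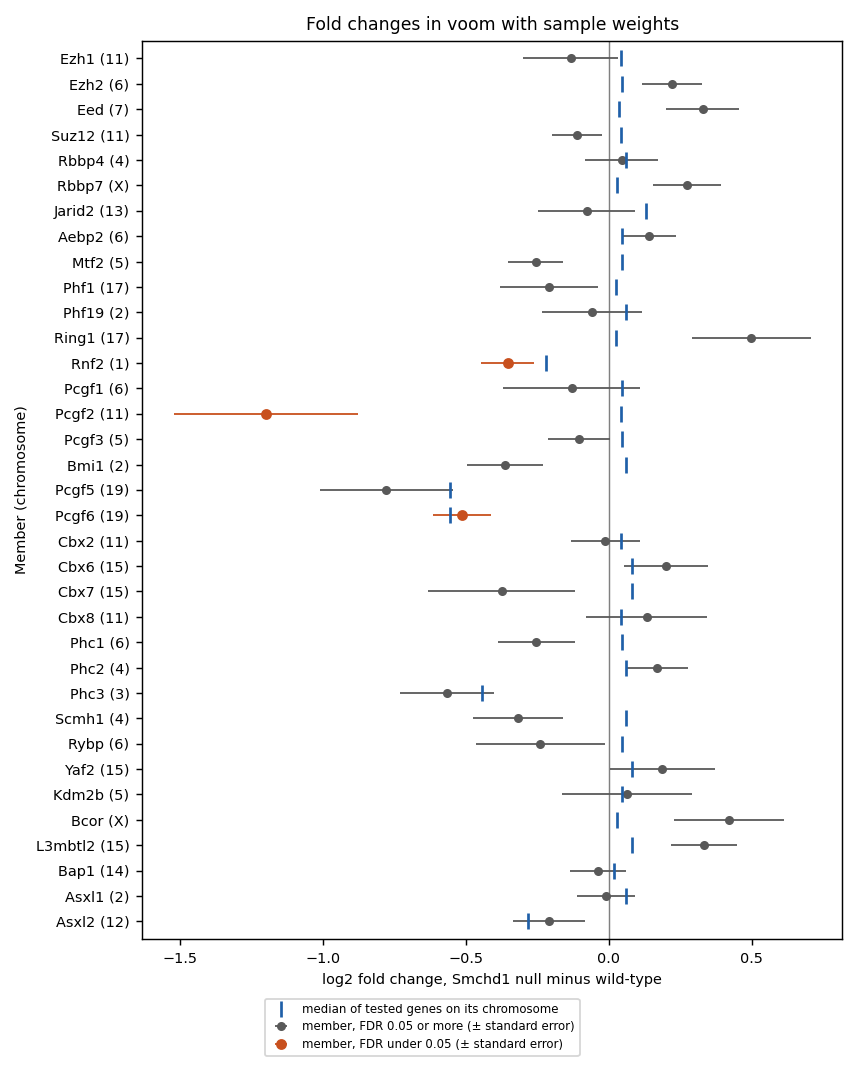
log2 fold change (Smchd1 null minus wild-type, x axis) of each of the 35 members, with its chromosome in brackets, as points with bars of ± 1 standard error from voom with sample weights in 3 wild-type and 4 null lines. Blue ticks are the median over all tested genes of the same chromosome. Orange points are the 3 members with an FDR under 0.05, Rnf2, Pcgf2 and Pcgf6; Pcgf5, Pcgf6 and Phc3 sit near ticks that are themselves far below 0.

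Rnf2 (Entrez 19821, chr1:151469398-151500991) encodes the more abundant of the 2 H2A ubiquitin ligases. Its level was 94.0, 105 and 103 CPM in wild-type replicates 1 to 3 and 87.5, 83.2, 75.5 and 69.4 CPM in null replicates 1 to 4. Every null line lay below every wild-type line, with means of 78.9 ± 8.04 (SD, n = 4) and 101 ± 6.06 CPM (SD, n = 3). The log2 fold change was -0.35 (SE 0.09, FDR 0.0453). The exons of Rnf2 overlap those of Trmt1l on the other strand, and the library kit does not keep strand, so that reads from the overlap cannot be assigned to either gene. Exons of 15 of the 35 members overlap those of another gene, among them Ezh2, Eed, Mtf2, Pcgf5, Cbx6, Cbx7, Kdm2b and L3mbtl2, and only those of Cbx6 (Npcd) and Kdm2b (Gm44574) overlap a gene on the same strand.

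Pcgf6 (Entrez 71041, chr19:47033617-47050939) encodes the Pcgf protein of the variant PRC1 that also holds E2f6, Mga and Max. Its level was 72.0, 85.9 and 84.3 CPM in wild-type lines and 62.5, 55.6, 65.8 and 53.3 CPM in null lines. The groups did not overlap, and the means were 80.7 ± 7.64 (SD, n = 3) and 59.3 ± 5.83 CPM (SD, n = 4). Its log2 fold change of -0.51 (SE 0.10, FDR 0.0217) had the smallest FDR among the members.

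Pcgf2 (Entrez 22658, chr11:97688821-97702434), also known as Mel18, is the close relative of Bmi1 in canonical PRC1. It had 17.4, 18.2 and 13.5 CPM in wild-type lines and 4.59, 8.67, 5.10 and 20.9 CPM in null lines. Null replicates 1 to 3 lay below all wild-type lines, whereas null replicate 4 lay above all of them. The log2 fold change was -1.20 (SE 0.32, FDR 0.0482), and -1.30 (FDR 0.0366) without null replicate 4. This was the largest log2 fold change in size among the 35 members, at one of their lowest levels, with 31 to 157 counts per library.

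The 3 calls depended on the weights and on single libraries. Leaving out wild-type replicate 2 gave FDRs of 0.935 for Rnf2, 0.894 for Pcgf6 and 0.863 for Pcgf2. Leaving out wild-type replicate 3 gave 0.875, 0.830 and 0.769, and in each of these fits 0.00813% of all genes were called. Pcgf6 also missed the threshold without null replicate 1 (FDR 0.0751) or 2 (0.104). Rnf2 missed it without any 1 of the null lines (FDR 0.0647 to 0.109), and Pcgf2 missed it without wild-type replicate 1 (0.0630) and without null replicate 1, 2 or 3 (0.0920 to 0.133). With voom alone 0 members were called, as with the edgeR quasi-likelihood test and with DESeq2, where 0.0975%, 0.0975% and 3.1% of all genes were called. At an unadjusted p under 0.05, voom alone had 5 of the 35 members, beside 11.3% of all genes. The edgeR test had 3, namely Mtf2, Rnf2 and Pcgf6, beside 11.5% of all genes. DESeq2 added Bcor to these, beside 12.8% of all genes. Within batch 2, which leaves out wild-type replicate 1, Rnf2 (FDR 0.0481), Pcgf6 (0.0211) and Pcgf5 (0.0323) were called, beside 13.7% of all genes. Without null replicate 4, Pcgf6, Pcgf2 and Phc3 were called, beside 11.2% of all genes.

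**Figure D2:**
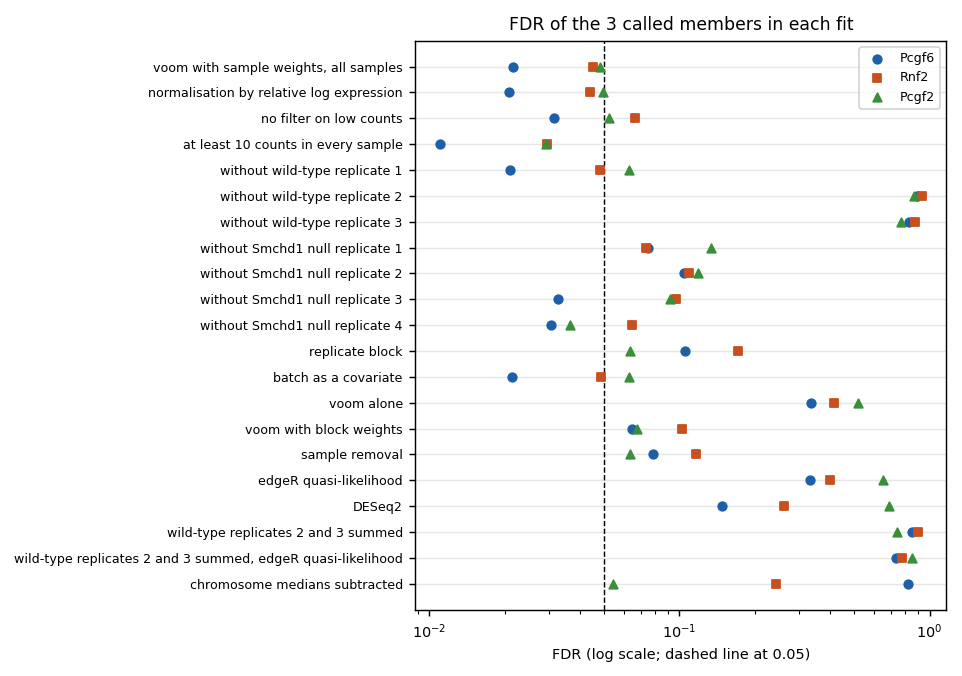
FDR (x axis, log scale) of Pcgf6, Rnf2 and Pcgf2 in voom with sample weights and in each of the 20 other fits of the same comparison; the dashed line is 0.05. Omitting wild-type replicate 2 or 3 moved all 3 genes to FDRs between 0.769 and 0.935. In each of these fits 0.00813% of all genes were called.

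The sequences before the start sites of the 3 called genes are shown beside that of Ring1, the other ligase gene. They are RefSeq sequences of GRCm38.p6, on the strand of the gene and read 5′ to 3′ toward the start site, and capitals mark CACGTG, the E-box that Myc and Max bind, which is present only in that of Pcgf2. All 4 genes lie on the minus strand. The windows are chr1:151500992-151501241 for Rnf2, chr19:47050940-47051156 for Pcgf6, chr17:34024681-34024930 for Ring1 and chr11:97699649-97699898 for Pcgf2. The first 3 lie outside any annotated exon, and that of Pcgf2 precedes an internal start site, within an intron of the gene in GENCODE M21. The Pcgf6 window is shown without the bases that lie inside the RefSeq gene.
Rnf2: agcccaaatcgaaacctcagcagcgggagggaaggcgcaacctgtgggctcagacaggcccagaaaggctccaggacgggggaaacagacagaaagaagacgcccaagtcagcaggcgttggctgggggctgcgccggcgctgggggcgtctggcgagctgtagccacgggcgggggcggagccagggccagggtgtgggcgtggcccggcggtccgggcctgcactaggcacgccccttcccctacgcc
Pcgf6: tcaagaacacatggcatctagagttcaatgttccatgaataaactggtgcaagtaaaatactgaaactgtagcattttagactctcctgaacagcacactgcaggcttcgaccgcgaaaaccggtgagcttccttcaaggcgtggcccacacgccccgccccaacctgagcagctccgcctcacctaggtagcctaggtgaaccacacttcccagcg
Ring1: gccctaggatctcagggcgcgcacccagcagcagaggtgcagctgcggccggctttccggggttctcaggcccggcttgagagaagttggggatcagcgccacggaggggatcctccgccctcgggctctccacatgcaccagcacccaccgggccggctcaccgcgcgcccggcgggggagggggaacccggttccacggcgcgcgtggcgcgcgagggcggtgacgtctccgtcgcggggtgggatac
Pcgf2: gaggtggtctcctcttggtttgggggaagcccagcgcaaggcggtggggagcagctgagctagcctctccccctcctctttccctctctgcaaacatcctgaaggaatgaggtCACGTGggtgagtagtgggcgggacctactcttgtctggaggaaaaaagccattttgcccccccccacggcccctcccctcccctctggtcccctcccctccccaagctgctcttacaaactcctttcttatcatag

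CpG-rich sequence is common at the promoters that Polycomb proteins regulate and at those of housekeeping genes. The Ring1 and Rnf2 windows had 73.6% and 70.4% G and C and observed to expected CpG ratios of 0.89 and 0.658. Pcgf6 had 56.0% and 0.732, over its full window of 250 bases. The window of Pcgf2 had 59.6% and a CpG ratio of only 0.232. A window was found for 31 of the 35 members, 44 windows in all, with a median G and C content of 65.4% against 60% in the 11814 windows of tested genes. The median CpG ratio was 0.73 in the members and 0.734 in the windows of tested genes.

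CACGTG, which reads the same on both strands, was present in 8 of the 44 member windows (18.2%), against 8.63% of the windows of tested genes and 6.02% of all 32851 windows. The E2F motifs TTTCGCGC and TTTGGCGC, searched on both strands, were in 0 member windows, against 0.58% and 0.82% of the windows of tested genes. Because every line carried the Eµ-Myc transgene, the E-boxes are shown with 10 bases on either side. They begin 215 bases before the start site in Bmi1, 57 in Phc2, 82 in Phc3, 224 in Rbbp4, 143 in Bap1, 26 in Cbx6, 98 in Cbx8 and 137 in Pcgf2. In GENCODE M21 all 250 bases of the Cbx6 window lie in exons of Cbx6, and the Bap1 and Cbx8 windows hold 118 and 56 exon bases.
Bmi1, chr2:18676793-18676818, plus strand: atgaggggagCACGTGacccggcggg
Phc2, chr4:128654635-128654660, plus strand: ctggagtgggCACGTGacactctccg
Phc3, chr3:30969482-30969507, minus strand: tcgctggcctCACGTGacctctgcgc
Rbbp4, chr4:129335579-129335604, minus strand: gggtgtatgtCACGTGatctgcacgg
Bap1, chr14:31251336-31251361, plus strand: ccgccctccgCACGTGcgcgccctcg
Cbx6, chr15:79834344-79834369, minus strand: cccggagcatCACGTGacggcccgca
Cbx8, chr11:119040996-119041021, minus strand: tcgttagcaaCACGTGgggcgggagg
Pcgf2, chr11:97699770-97699795, minus strand: ggaatgaggtCACGTGggtgagtagt
Of these 8 genes, only Pcgf2 was DE, where 11.9% of all genes tested were, and its window precedes an internal start site. The log2 fold changes of the other 7 ranged from -0.57 in Phc3 to 0.20 in Cbx6. The motif matches are descriptions and carry no measurement of Myc binding in these lines.

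Ring1 (Entrez 19763, chr17:34020792-34024680) encodes the second ligase of PRC1 and was the second lowest member per length. Its level was 3.31, 9.35 and 8.06 CPM in wild-type lines, from 12, 57 and 55 counts, and 10.5, 14.0, 10.7 and 14.0 CPM in null lines, from 71, 87, 69 and 105 counts. All 4 null lines lay above all wild-type lines, with means of 12.3 ± 1.95 (SD, n = 4) and 6.91 ± 3.18 CPM (SD, n = 3), yet the log2 fold change of 0.50 (SE 0.21) did not pass the test (FDR 0.141). Counting error alone spanned 1.71 to 5.78 CPM in wild-type replicate 1 and 7.08 to 12.1 CPM in wild-type replicate 2 (exact 95% binomial intervals). The interval of replicate 2 reached above the 10.5 and 10.7 CPM of null replicates 1 and 3.

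Rnf2 fell, whereas the log2 fold change of Ring1 was above 0 without passing the test. Per length, Ring1 made up 4.98%, 11.7% and 10.4% of the summed RPKM of both ligases in wild-type lines and 15.2%, 20%, 17.4% and 23.0% in null lines. The mean share was 9.01 ± 3.55% (SD, n = 3) and 18.9 ± 3.40% (SD, n = 4), and the groups did not overlap. Rnf2 exceeded Ring1 by 7.57 to 19.1 times in wild-type lines and by 3.34 to 5.59 times in null lines. Among 10 families of related subunits, this was the only family in which the shares of the groups did not overlap. Ring1 was higher and Rnf2 lower in every null line, so that their shares had to separate and are not a further result. Family shares were not tested.

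**Figure D3:**
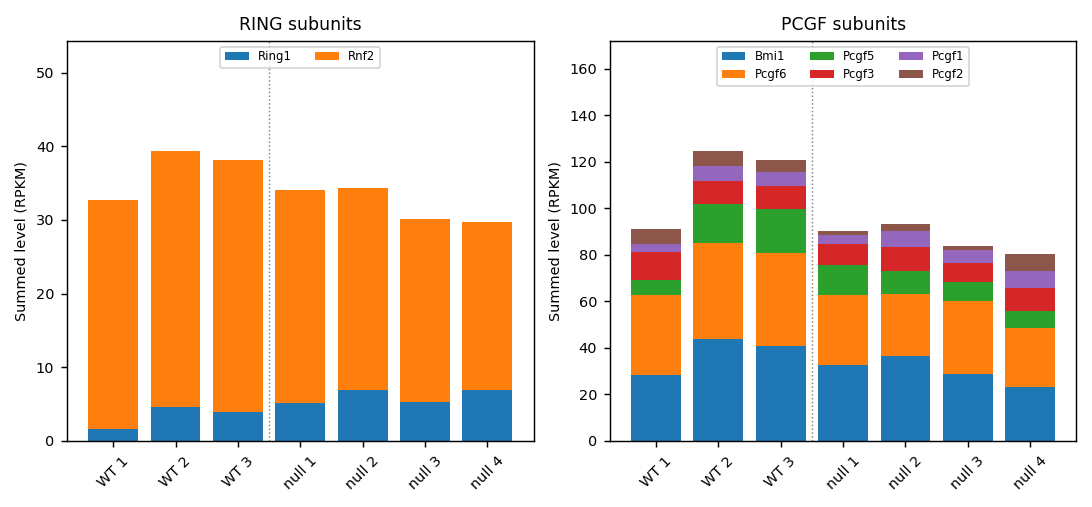
Stacked bars of the summed RPKM (y axis) of Ring1 and Rnf2 (left) and of the 6 Pcgf genes (right) in each of the 7 lines, with a dotted line between wild-type (WT) and Smchd1 null lines. Ring1 takes 4.98% to 11.7% of the left bars in wild-type and 15.2% to 23.0% in null lines; Bmi1 and Pcgf6 fill most of each right bar.

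The Pcgf genes decide which kind of PRC1 forms. Bmi1 and Pcgf6 were the main members per length, with 28.7% to 39.2% and 28.4% to 37.7% of the summed Pcgf RPKM in single lines. Pcgf2 took 3.95% to 6.74% in wild-type lines, 1.79% to 3.28% in null replicates 1 to 3 and 9.15% in null replicate 4. Including Ring1 and Rnf2, 7 of the 8 genes of the PRC1 core had a log2 fold change below 0, with a median of -0.36. Of all genes tested, 50.7% were below 0. Rnf2 lies on chromosome 1 and Pcgf5 and Pcgf6 on chromosome 19, where 64.1% and 91.9% of tested genes were below 0. Bmi1 was at 102, 158 and 146 CPM in wild-type lines and 118, 132, 104 and 83.1 CPM in null lines, and its log2 fold change of -0.36 (SE 0.13) did not pass the test (FDR 0.107). Its groups overlapped. Pcgf5, of the variant complexes that also hold Auts2, had 9.65 CPM in wild-type replicate 1 against 25.1 and 28.4 CPM in the other wild-type lines, and 11.2 to 19.5 CPM in null lines. Its log2 fold change of -0.78 had an FDR of 0.0637, and -0.82 with an FDR of 0.0323 without wild-type replicate 1. Pcgf1 and Pcgf3 had log2 fold changes of -0.13 and -0.10.

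The 4 highest levels per length belonged to genes of the PRC2 core, and none of its 6 genes was called. Ezh2, the main methyltransferase, was at 255 to 267 CPM in wild-type lines and 255 to 344 CPM in null lines (log2 fold change 0.22, FDR 0.192). Ezh2 made up 89.7% to 95.03% of the summed RPKM of Ezh1 and Ezh2 in all 7 lines, and Ezh1 had a log2 fold change of -0.13. Suz12, which holds the complex together, ranged from 370.1 to 472 CPM over all lines with a log2 fold change of -0.11. Eed, which binds the mark that PRC2 writes, had the largest difference of the group, 0.33 (SE 0.13, FDR 0.121). Its highest line was wild-type replicate 1, at 148 CPM, and the other wild-type lines at 94.0 and 82.7 CPM lay below all null lines. Rbbp4 and Rbbp7, histone binding proteins shared with other complexes, were the highest of all 35 members, at mean RPKM of 122 and 176 over the 7 lines, with log2 fold changes of 0.05 and 0.27.

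Accessory subunits steer PRC2 to its targets, and 0 of 5 were called. Mtf2 (Entrez 17765), a Polycomb-like protein that binds unmethylated CpG DNA, had 143, 113 and 104 CPM in wild-type lines and 98.3, 88.0, 90.5 and 93.5 CPM in null lines. Every null line was lower, but the log2 fold change of -0.26 (SE 0.10) did not pass the test (FDR 0.116). The wild-type mean was 119.9 ± 20.8 CPM (SD, n = 3) and the null mean 92.6 ± 4.44 CPM (SD, n = 4). Exons of Mtf2 overlap those of Tmed5 on the other strand.

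Aebp2 (Entrez 11569), a zinc finger cofactor of PRC2, was at 150.3, 177 and 162 CPM in wild-type lines and 199, 178, 186 and 203 CPM in null lines. The groups were next to each other, at 177 and 178 CPM, and the log2 fold change of 0.14 (SE 0.09) did not pass the test (FDR 0.333). Jarid2, the partner of Aebp2 in the same form of PRC2, had 48.8 CPM in wild-type replicate 1 and 67.6 to 105 CPM elsewhere. Phf1 and Phf19, the other Polycomb-like proteins, had log2 fold changes of -0.21 and -0.06, and Phf19 was lowest in null replicate 4, at 36.3 CPM against 71.1 to 96.1 CPM.

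Among the 8 genes of canonical PRC1, which carry the readers and polymerising subunits, 0 were called in the fit with all samples. Phc3, a polyhomeotic protein, was at 85.7, 97.8 and 95.3 CPM in wild-type lines and 53.9, 57.5, 93.9 and 93.9 CPM in null lines. Null replicates 1 and 2 were low and null replicates 3 and 4 lay within the wild-type range. Its log2 fold change was -0.57 (SE 0.17, FDR 0.0605), with FDRs of 0.0259 without null replicate 3 and 0.0479 without null replicate 4. Phc1 and Phc2 had log2 fold changes of -0.25 and 0.17.

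Cbx proteins read the H3 mark. Cbx7 was at 20.8 to 27.7 CPM in wild-type lines and 14.7, 17.8, 19.5 and 56.9 CPM in null lines, so that null replicates 1 to 3 were below and null replicate 4 above all wild-type lines. Exons of Cbx7 overlap those of Apobec3 on the other strand. Cbx6 also peaked in null replicate 4, at 175 CPM against 80.5 to 117 CPM in the other lines. Cbx2 and Cbx8 varied less, with log2 fold changes of -0.01 and 0.13. Cbx6 had the largest share of the summed RPKM of these 4 Cbx genes in every line, 36.5% to 47.7%. Scmh1, which binds Phc proteins, had a log2 fold change of -0.32 (FDR 0.206).

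Among the 5 variant PRC1 genes, of which 0 were called, Bcor (Entrez 71458, chrX:12036737-12160516), the corepressor that works with Pcgf1, had the largest log2 fold change. Bcor was at 43.6, 128 and 136 CPM in wild-type lines and 160.4, 165, 181 and 227 CPM in null lines. All null lines were higher, with means of 183 ± 30.4 (SD, n = 4) and 103 ± 51.3 CPM (SD, n = 3), but the log2 fold change of 0.42 (SE 0.19) did not pass the test (FDR 0.177). Within batch 2 it was 0.36 (SE 0.10, FDR 0.0509). Kdm2b, which brings variant PRC1 to CpG islands, was at 40.7 CPM in null replicate 4 and 86.0 to 139 CPM in all other lines. L3mbtl2, of the Pcgf6 complex, had a log2 fold change of 0.33 (FDR 0.0955). Rybp and Yaf2, which stimulate the ligase, had log2 fold changes of -0.24 and 0.19, and Rybp was lowest in wild-type replicate 1, at 14.6 CPM against 22.2 to 46.2 CPM.

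None of the 3 PR-DUB genes was called. Bap1, the deubiquitinase, stood at 217 to 233 CPM in wild-type lines, 211 to 228 CPM in null replicates 1 to 3 and 153 CPM in null replicate 4. Its cofactors Asxl1 and Asxl2 had log2 fold changes of -0.01 and -0.21. Asxl1 had the smallest spread of all members, an SD of 0.08 in log2 CPM over the 7 lines.

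Groups that did not overlap in CPM were seen for 6 of the 35 members (17.1%), against 13.2% of all genes tested. Aebp2, Ring1 and Bcor were higher in every null line (6.35% of all genes), and Mtf2, Rnf2 and Pcgf6 were lower in every null line (6.85%). Of these 6, Rnf2 and Pcgf6 were called, and 6.16% of all genes were both called and free of overlap. Pcgf2 was called although its groups overlapped.

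**Figure D4:**
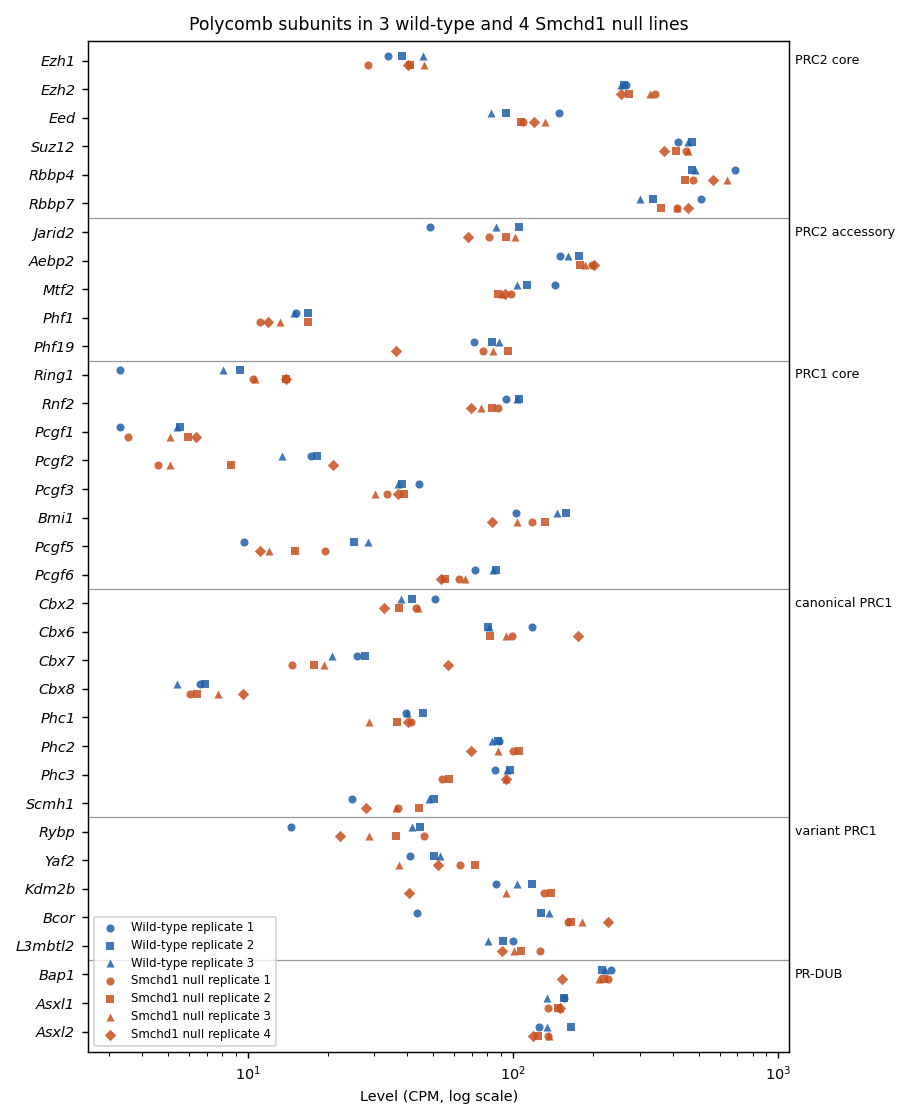
Level in CPM (x axis, log scale) of the 35 members in each line, 1 symbol per replicate, wild-type in blue and Smchd1 null in orange, grouped by complex. Rnf2 and Pcgf6 are lower and Ring1 and Bcor higher in every null line, and null replicate 4 (diamonds) stands alone in Cbx7, Phf19 and Kdm2b, whereas in Pcgf2 it lies beside the wild-type lines.

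Over all 7 lines the members were steadier than other genes. Their median SD of log2 CPM was 0.25 against 0.37 for all genes tested, at a median log2 CPM of 6.35 against 4.96, and higher counts carry less counting error. Pcgf2 (0.85), Bcor (0.78), Ring1 (0.69), Rybp (0.63) and Kdm2b (0.61) varied most. The lowest of the 7 values fell in null replicate 4 for 11 of the 35 members and in wild-type replicate 1 for 8, against 19.3% and 21.5% of all genes. The highest fell in wild-type replicate 2 for 11 members, against 9.36% of all genes, and in wild-type replicate 1 and null replicate 4 for 7 each, against 25.6% and 23.8%. The mean RPKM of the 35 genes ran from 176 in Rbbp7 through Rbbp4, Ezh2 (106), Suz12 (99.1) and Bap1 (62.2) to Cbx8 (4.997), Ring1 (4.90) and Pcgf2 (4.45). Of 34 pairs of neighbours in this order, only Suz12, at 84.6 to 108 RPKM, and Bap1, at 44.8 to 68.4 RPKM, had ranges over the 7 lines that did not overlap.

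Several of these differences moved with the chromosome. On chromosome 19, which holds Pcgf5 and Pcgf6, the median log2 fold change of 433 tested genes was -0.56, and 91.9% were below 0. Of the 74 tested genes within 5 Mb of Pcgf6, 70 were below 0, with a median of -0.65, against -0.51 for Pcgf6 itself. Chromosome 1 had a median of -0.22, and 26 of the 34 tested neighbours of Rnf2 were below 0 with a median of -0.37, against -0.35 for Rnf2.

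Chromosome 3, with Phc3, had a median of -0.44, and its genes were lower in null replicates 1 and 2, by median deviations from the mean of all lines of -0.38 and -0.41, than in null replicates 3 and 4, at 0.12 and 0.07. Phc3 had the same 2 low lines. Chromosome 15 was raised in null replicate 4, with a median deviation of 0.40, beside Cbx6 (0.77) and Cbx7 (1.21), whereas Yaf2 (-0.01) and L3mbtl2 (-0.15) on the same chromosome were not raised there. Chromosome 13 was low in wild-type replicate 1, at -0.65, as was Jarid2, at -0.77. The medians of chromosome 11 for Pcgf2, chromosome 17 for Ring1 and chromosome X for Bcor were 0.04, 0.03 and 0.03.

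All 5 members on the 4 chromosomes with a median below -0.2 had log2 fold changes below 0, as did 17 of the other 30. When the chromosome median of each line was subtracted, an alternative chosen after the values were seen, 0 members were called and 8.53% of all genes were. At an unadjusted p under 0.05 there were 5 of the 35 members, against 29% of all genes. Pcgf6 then had a log2 fold change of 0.04 (FDR 0.823) and Rnf2 one of -0.16 (FDR 0.243). Pcgf5 had -0.22 (FDR 0.456) and Phc3 -0.14 (FDR 0.351). Pcgf2 stayed at -1.25 (FDR 0.0542), Mtf2 at -0.32 (FDR 0.0589), Ring1 at 0.47 and Bcor at 0.37, and Smchd1 at -3.19.

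**Figure D5:**
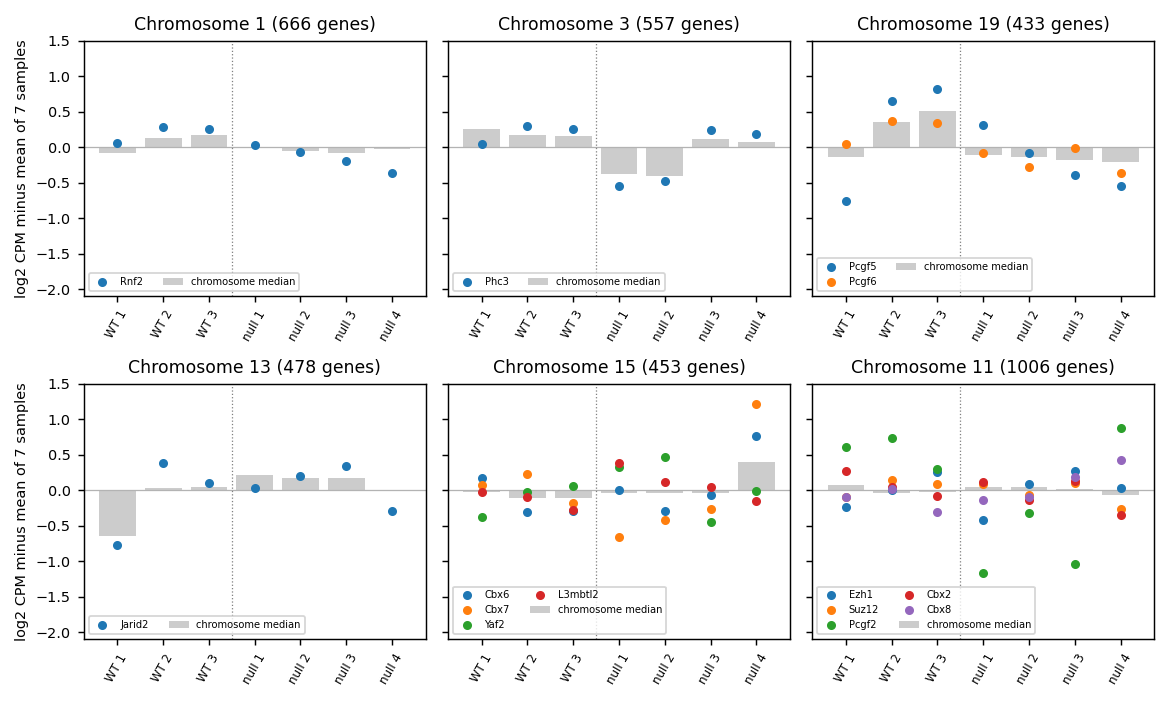
Deviation of log2 CPM from the mean of the 7 lines (y axis) for the members on 6 chromosomes (points) and the median deviation of all tested genes of that chromosome (grey bars), by line. Pcgf6 follows the bars of chromosome 19 and Phc3 those of chromosome 3, whereas Pcgf2 departs from the flat bars of chromosome 11.

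Genes that work with or against Polycomb were taken from 3 further lists. Of 38 genes for partners of the complexes, 33 passed the filter, and 2 rose and 2 fell (12.1%), where 5.06% of all genes rose and 6.85% fell. Kdm2a, which binds CpG islands and demethylates H3K36, fell by 0.89 on the log2 scale (FDR 0.0114), from 134, 234 and 252 CPM to between 121 and 146 CPM, and its groups overlapped. Ogt, the O-GlcNAc transferase that binds PR-DUB, fell by 0.53 (FDR 0.0295), and its groups did not overlap. Kdm1b, an H3K4 demethylase, rose by 1.02 (FDR 0.0445) and Scml4 by 1.23 (FDR 0.0453), and the groups of both overlapped. Of 30 genes that oppose Polycomb, such as H3K27 demethylases and trithorax and SWI/SNF subunits, 0 rose and 2 fell (6.67%). These were Men1 (-0.76, FDR 0.0335) and Rbbp5 (-0.41, FDR 0.0347), parts of H3K4 methyltransferase complexes, and the groups of both overlapped, with Men1 lowest in wild-type replicate 1, at 73.6 CPM against 105 to 129 CPM in null lines. Men1 and Kdm2a lie on chromosome 19 and Rbbp5 on chromosome 1, whose medians were -0.56 and -0.22, and with chromosome medians subtracted the partner list had 2 calls and the opposing list 0. For these 6 genes the FDR in the edgeR quasi-likelihood test ranged from 0.352 to 0.728.

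Genes that Polycomb is known to silence mostly stayed under the filter on low counts. Of 59, among them 39 Hox genes, 16 passed, and 2 rose and 1 fell, 18.8% of those that passed, against 11.9% of all genes. Isl1, a developmental transcription factor, had 0 counts in all 3 wild-type lines and 5.48, 11.9, 9.58 and 7.05 CPM in null lines (FDR 0.00175). Hoxb9 was at 0.551, 1.64 and 3.81 CPM in wild-type lines and 0 in all 4 null lines (FDR 0.014). Hoxa4 had 1 count in wild-type replicate 3 and 0 in the other wild-type lines, and 0.321 to 2.39 CPM in null lines (FDR 0.0495). In the edgeR quasi-likelihood test the FDRs of the 3 genes were 0.052, 0.225 and 0.259. Each of the 3 genes passed the filter only through the group in which it was higher. The share of 18.8% can therefore not be read against that of all genes. Cdkn2a, the target of Bmi1 that encodes Ink4a and Arf, did not pass the filter. It had 233 CPM, from 845 counts, in wild-type replicate 1, 4.59 CPM in null replicate 1, 0.161 CPM in null replicate 2 and 0 counts in the other 4 lines, so that its level varied between lines of the same group.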

How the data were processed

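RNA-seq was performed by the authors on 7 lymphoma cell lines with unstranded TruSeq libraries. According to the labels and published methods, base calls came from CASAVA 1.8.2, and the authors mapped reads to mm10 with Subread and counted them per Entrez gene with featureCounts. The deposited values were raw counts, with a gene length beside each count, neither normalised nor pooled. How reads of gene copies were counted is not given in the sources used here. CPM and RPKM were computed from the deposited counts, library totals and lengths.

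The filter kept every gene that reached 0.5 CPM in 3 samples. Following the study, TMM factors, voomWithQualityWeights, lmFit and eBayes in limma 3.58.1 compared null with wild-type samples, and FDRs were adjusted over all 12303 genes. Alternatives used edgeR 4.0.16, DESeq2 1.42.0 in R 4.3.3, other filters, covariates and subsets of samples. Scripts were tested on simulated data. Symbols came from RefSeq GRCm38.p6, by Entrez identifier, for 25275 genes holding 98.2% of counts. Exons came from GENCODE M21 of the same build.

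The members and lists were chosen with earlier results of these data known. Values in every sample are given for Smchd1, for members that were DE or whose groups did not overlap, and for others chosen after their values were seen. In the further lists, at most the 3 smallest FDRs in each direction are named. An item of a marker list is not reported here. Floors and binomial intervals cover counting error only.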

Additional observations from a re-analysis of the deposited data

Results flagged for a closer look

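Each of the 35 members and Smchd1 was screened in the 4 null lines for a line that lay far from the others by Dixon's criterion, the gap to the nearest line divided by the range. With 36 genes, about 1.8 would be marked by chance, since chance marks about 1 group in 20, and 2 were. Smchd1 null replicate 4 held Cbx7 at 56.9 CPM, whereas the other null lines ranged from 14.7 to 19.5 CPM, a gap of 0.886 of the range. Smchd1 null replicate 1 held Asxl1 at 135 CPM, whereas the other null lines ranged from 147.8 to 149.8 CPM, a gap of 0.858 of the range.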

How the results depend on the processing

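Members called DE numbered 3 under normalisation by relative log expression (Rnf2, Pcgf2 and Pcgf6), beside 11.7% of all genes. With batch as a covariate they numbered 3 (Rnf2, Pcgf6 and Pcgf5), beside 13.6%. They numbered 1 with no filter on low counts, beside 8.65%, and 5 with at least 10 counts in every sample, beside 16.1%. At an FDR under 0.1, for which no share of all genes is given, they numbered 6 (1 higher, 5 lower). They numbered 0 with voom alone, block weights, sample removal, the edgeR quasi-likelihood test, DESeq2, wild-type replicates 2 and 3 summed (in voom and in edgeR) and chromosome medians subtracted. The edgeR fit of the summed counts and the fit with chromosome medians subtracted were chosen after seeing the data. Leaving out 1 replicate at a time gave 0 to 3 members. All genes called went from 1466 to 1 without wild-type replicate 2 or without wild-type replicate 3, 443, 281, 923 and 1374 without null replicates 1 to 4, 1683 without wild-type replicate 1, 12 with voom alone and in edgeR, 382 in DESeq2, 493 with block weights, 521 with sample removal and 1 and 2 with the wild-type pair summed. Pcgf6 reversed, to a log2 fold change of 0.0432, with chromosome medians subtracted. Of the 32 members not called, 18 changed sign in some alternative.

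The partner list, with 4 calls, had 2 with no filter (0 higher, 2 lower), 1 with block weights, 1 with sample removal, 2 with chromosome medians subtracted, 8 at an FDR under 0.1, and 0 with voom alone, edgeR, DESeq2 and both summed fits. The opposing list, with 2 calls, had 1 with no filter, 5 with at least 10 counts, 1 with sample removal, 5 at an FDR under 0.1, and 0 with voom alone, block weights, edgeR, DESeq2, chromosome medians subtracted and both summed fits. The target list, with 3 calls, had 6 with no filter, 0 with at least 10 counts, where only 1 target gene was tested and none of the 3 could enter, 1 with voom alone, 5 at an FDR under 0.1, and 0 in edgeR and both summed fits. Without 1 replicate these lists had 0 to 4, 0 to 3 and 0 to 3 calls. Smchd1 kept its direction and its call in all fits, from -3.21 to -3.02 without 1 replicate. The cause of these changes was not tested.

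Replicate numbers are shared by the groups in the labels, and nothing states that same-numbered samples are pairs. Correlations of their deviations across genes were -0.15, 0.22 and -0.21, against -0.236 to 0.206 for samples with different numbers. These values cannot settle whether the samples are pairs, and the main fit treated them as unpaired. With the number as a block, 0 members were called, 1 partner gene, 0 opposing genes, 4 target genes (2 higher, 2 lower), and 222 of all genes. Only replicates 1 to 3 of the null group share a number with a wild-type line. Ring1, Pcgf1 and Cbx8, with counts as low as 12, are limited by depth.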
